A study of Homo sapiens with 12 samples.

Results

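Of the 13284 genes that met a level and a count limit, 176 differed in the same direction in both FLCN knockdown comparisons of HK2 cells, 71 of them higher and 105 lower with knockdown. They were chosen by their ratio of knockdown to nontarget cells, computed from the authors' normalised counts as the mean of 3 libraries plus 1. That ratio had to be at least 2, or at most 0.5, in short-term and in long-term cells alike. The mean over the 12 libraries had to be at least 10, and the long-term knockdown libraries together had to hold more than 5 reads. The ratios therefore describe the members and are given without a test. Another 63 genes passed the ratio limit in opposite directions, 54 of them higher short-term and lower long-term and 9 the other way.

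HK2 is an immortalised cell line derived from the proximal tubule of a human kidney. RNA was sequenced from 3 libraries each of nontarget and FLCN knockdown cells after short-term culture and of the same kinds of cells after long-term culture. All cells carried a short hairpin RNA (shRNA), the nontarget cells (shControl, labelled WT) a control hairpin and the knockdown cells a hairpin against FLCN, and short- and long-term stand for fewer than 30 and more than 120 passages in the labels, while the study's methods set a lower limit for long-term cells. The lines were grown from selected clones, the clone behind each library is not given in the sources used here, and so an effect of the hairpin and a difference between clones cannot be told apart. The 3 libraries of a group are labelled biological replicates, and nothing says that they came from separate clones.

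FLCN encodes folliculin, a kidney tumour suppressor that is lost in Birt-Hogg-Dubé syndrome. With its partners FNIP1 and FNIP2 it acts on Rag GTPases at the lysosome, where it helps to keep the transcription factors TFEB and TFE3 out of the nucleus. A hairpin RNA is cut into a short guide strand that directs the silencing machinery to an mRNA with a matching sequence. Such a guide can also lower other mRNAs that pair only with its bases 2 to 8, the seed, most of all when the match lies in the 3′ untranslated region (3′ UTR).

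The labelled cell type was checked against fixed markers. The proximal tubule markers LRP2, HNF4A, SLC5A12, SLC22A6 and SLC22A8 had a mean of 0 normalised counts, and CUBN had 2.33. PAX8 (1346), GGT1 (351) and SLC5A2 (81.2) were present, as were the keratins KRT8 (13001) and KRT18 (5300), while the epithelial cadherin CDH1 had 2.00. Summed over their lists, leukocyte markers had 0 to 2 normalised counts in a library and endothelial markers 0 to 15, distal nephron markers 0 to 41 and fibroblast markers 96 to 285, most of it COL1A1 (mean 150). The distal nephron markers summed to 20 to 41 in long-term nontarget and 0 to 2 in long-term knockdown libraries, and their part in the results was not tested. Library totals ranged from 5825779 to 8991051 reads.

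FLCN (chromosome 17, 17212212 to 17237188) was measured first, as the targeted gene. Short-term nontarget libraries had 88, 115 and 113 normalised counts and short-term knockdown libraries 41, 45 and 39. Long-term nontarget libraries had 68, 82 and 84, and long-term knockdown libraries 46, 43 and 54. The groups did not overlap at either time. In edgeR's quasi-likelihood test over 13959 genes the log2 change was −1.33 (SE 0.179, adjusted p = 1.12e-04) short-term and −0.70 (SE 0.178, adjusted p = 0.00611) long-term. The rule for members left FLCN out, because its long-term ratio was above 0.5.

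Many of the 105 lower genes held a sequence that the rule did not use. All octamers (8 bases) found in the annotated 3′ UTRs of at least 60 of 11700 genes were ranked by the knockdown ratio of the genes that hold them. The score was the mean log2 ratio, adjusted for UTR length, times the square root of the number of genes and divided by the SD over all genes. It was not adjusted for base composition. In the short-term comparison AACATTTA had the lowest score of 52276 octamers (−8.89, 1110 genes), and the next one (ACATTTAA, which overlaps it by 7 bases) had −6.37. The long-term libraries played no part in that choice, and there AACATTTA ranked 3rd, with a score of −4.19 and no gap to the octamers after it (4th −4.17, 5th −4.15). The pair ahead of it long-term, CCTTGTCC (−4.41) and CCCACTCC (−4.23), ranked 29132nd and 51664th short-term. Short-term, other octamers rich in A and T also scored low, such as TTTAAAGT (−5.8) and AATTATAT (−5.52).

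Of the 92 lower genes with an annotated 3′ UTR, 27 held AACATTTA (29.3%), against 8 of 65 higher genes (12.3%) and 9.49% of all 11700 genes. At least 2 copies were held by 7 of the 92 lower genes (7.61%) and by 1.20% of all genes. Median UTR length was 1588 bases in the lower, 1552 in the higher and 1415 in all genes, and among UTRs of 1000 to 4000 bases the shares were 27.3% of 44 lower genes, 10.7% of 28 higher genes and 10.0% of all 5605 genes. Among genes with a mean of at least 50 normalised counts the octamer was held by 23 of 49 lower genes (46.9%), by 2 of 29 higher genes (6.90%) and by 9.53% of all genes. It was held by 16 of 73 genes that passed the lower limit short-term only (21.9%) and by 78 of 616 that passed it long-term only (12.7%). Since the octamer was picked on the short-term ratios, which also chose the members, these shares are descriptions.

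FLCN itself held 1 copy. The sites of FLCN and of the lower genes ADD2, C5orf24, NEK7, ARNTL2, LPP, PIGA, TGM2, ACLY and HMGA2 are printed below as 30 transcribed bases, 5′ to 3′, from the longest 3′ UTR that GENCODE 29 gives on GRCh38. Capitals mark the octamer, and the flanking bases are shown because they differ from site to site. LPP and PIGA hold 2 copies each, of which only copy 1 is shown.
FLCN (chr17:17212852-17212881, minus strand): ttgctgctttcAACATTTAcgtttggttac
ADD2 (chr2:70658762-70658791, minus strand): acaaatgagagAACATTTAccccttactca
C5orf24, copy 1 (chr5:134855918-134855947, plus strand): tgagtttttgtAACATTTAttttcacaaga
C5orf24, copy 2 (chr5:134856346-134856375, plus strand): ttatgtttaaaAACATTTAttggctgggtg
NEK7, copy 1 (chr1:198320057-198320086, plus strand): actatttgagaAACATTTAgaactcttagc
NEK7, copy 2 (chr1:198321335-198321364, plus strand): taatgacttttAACATTTAtactgagcatc
NEK7, copy 3 (chr1:198322138-198322167, plus strand): gtgttgctgttAACATTTActatgatattt
ARNTL2 (chr12:27421000-27421029, plus strand): gtgagtacttgAACATTTAaagggacagtg
LPP, copy 1 (chr3:188877037-188877066, plus strand): acatatgtagaAACATTTAgatttagagtt
PIGA, copy 1 (chrX:15321272-15321301, minus strand): atttaggagagAACATTTAagccactcagg
TGM2 (chr20:38128026-38128055, minus strand): ggaccaattcaAACATTTAtcacagtaaat
ACLY (chr17:41867410-41867439, minus strand): gaagggaatgaAACATTTAtggcctcaaga
HMGA2 (chr12:65953103-65953132, plus strand): gcaagtagttaAACATTTAcctccccagca

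Over all genes, the ratio was lower with more copies. Unlike the score, these ratios were not adjusted for UTR length. The octamer was picked on the short-term ratios, so the short-term values describe that choice. The median log2 ratio was 0.006 short-term and 0.007 long-term in the 10590 genes with no copy, −0.106 and −0.079 in 970 genes with 1 copy, −0.131 and −0.136 in 116 genes with 2 copies, and −0.311 and −0.204 in 24 genes with 3 or more. Genes with 3 or more copies had a ratio below 1 in 87.5% of cases short-term and 70.8% long-term, against 48.8% at each time in genes with none. Genes that held only the first 7 bases (AACATTT) had medians of −0.057 and −0.027, and genes that held only the last 7 (ACATTTA) −0.048 and −0.035. The sequence of the FLCN hairpin is not given in the sources used here, so whether its guide pairs with this octamer was not tested. The UTR used in HK2 cells can also be shorter than the longest one annotated, or lie in another exon, so a gene's main mRNA may lack the site.

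The folds at both times were compared between lower genes with and without the octamer. Of the 27 with it, 21 (77.8%) had short- and long-term folds within 1.5 times of each other, against 34 of 65 (52.3%) without it. Their UTRs differed in length, with a median of 3059 bases with and 1112 without it. Their levels differed too, as 23 of the 27 had a mean of at least 50 normalised counts, against 49 of all 92 lower genes. Folds of scarce genes rest on fewer reads. The median folds were 2.36 short-term and 2.95 long-term with the octamer, and 2.29 and 3.27 without it. These folds belong to the comparisons that chose the members, so no test was made.

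NEK7 (chromosome 1, 198156963 to 198322420), a kinase needed for NLRP3 inflammasome assembly, is the lower gene with 3 copies. Its libraries had 262, 288 and 280 normalised counts in short-term nontarget and 70, 86 and 71 in short-term knockdown cells, then 395, 284 and 285 in long-term nontarget and 94, 75 and 55 in long-term knockdown cells. The groups stood apart at both times, by 3.62-fold and 4.26-fold. C5orf24 (chromosome 5, 134845680 to 134859737), a gene of little known function, had 298, 237 and 291 against 68, 71 and 51 short-term, and 356, 190 and 237 against 48, 43 and 60 long-term. Its lowest nontarget library thus lay well above its highest knockdown library at both times (4.30-fold and 5.10-fold lower on the means).

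ADD2, which encodes the membrane skeleton protein beta-adducin, was 6.45-fold and 6.85-fold lower, from 70.0 ± 9.85 to 10.0 ± 6.56 short-term and from 106 ± 9.29 to 14.7 ± 8.02 long-term (normalised counts, SD, n = 3). ARNTL2, a circadian clock transcription factor, was 2.88-fold and 4.25-fold lower. LPP, a focal adhesion protein, was 2.85-fold and 5.19-fold lower, BTN2A1, a butyrophilin, 2.69-fold and 3.09-fold, and B3GALT5, a galactosyltransferase, 2.68-fold and 4.35-fold. TMEM65, a mitochondrial inner membrane protein, was 3.71-fold and 3.13-fold lower. All of these genes hold the octamer, and in each of them the 3 knockdown libraries lay below the 3 nontarget libraries at both times.

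Among the abundant lower genes with the octamer were TGM2, ACLY and HMGA2, picked here after their values were seen. TGM2 encodes tissue transglutaminase, which cross-links proteins. It had 13462, 11986 and 14628 normalised counts in short-term nontarget against 4895, 4173 and 7885 in knockdown cells, and 7212, 7970 and 11156 against 2995, 2745 and 4533 long-term. ACLY, the ATP citrate lyase that makes cytosolic acetyl-CoA, had 3090, 2973 and 3625 against 1334, 1302 and 1768 short-term, and 2968, 2945 and 3539 against 1222, 1147 and 1412 long-term. For both genes replicate 3 was the highest of every group, and the groups did not overlap. ACLY overlaps AC125257.2 on the opposite strand, which is also a member (2.73-fold and 2.03-fold lower), and reads of the pair cannot be told apart if counting ignored strand.

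HMGA2, an architectural chromatin protein of embryonic and tumour cells, had its larger fold in long-term cells. It had 6517, 6149 and 5309 against 3404, 2990 and 2505 short-term (2.02-fold), and 4077, 3067 and 3182 against 512, 491 and 457 long-term (7.06-fold). Long-term knockdown was the lowest group by a wide margin, and the short-term knockdown libraries overlapped the long-term nontarget ones.

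By the smaller of the folds, the first of the lower genes was UNC13A (chromosome 19, 17601328 to 17688365), which primes synaptic vesicles for release and holds no copy of the octamer. It had 119, 124 and 114 normalised counts against 4, 6 and 4 short-term, and 79, 86 and 118 against 8, 14 and 5 long-term. Both knockdown groups were thus near the bottom of the scale, at 21.2-fold and 9.53-fold below nontarget.

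SLC39A1 (chromosome 1, 153959099 to 153968184) encodes ZIP1, a plasma membrane zinc importer. It had 1295, 1291 and 1218 against 315, 282 and 298 short-term and 1231, 1454 and 1397 against 189, 203 and 221 long-term, with little spread inside any group. The folds were 4.24 and 6.63. SLC39A1 overlaps CREB3L4, among other genes. CRABP2, which carries retinoic acid to the nucleus, was 3.33-fold and 3.03-fold lower (423 ± 47.7 to 126 ± 31.6 and 515 ± 78.5 to 169 ± 4.58, SD, n = 3).

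Among higher genes with a mean of at least 50 normalised counts, the fibrillar collagens COL11A1 and COL5A1 came first by the smaller of their folds. COL11A1, a minor fibrillar collagen chain, had 6, 2 and 4 normalised counts in short-term nontarget against 902, 888 and 781 in knockdown cells (172-fold), and 5, 0 and 6 against 350, 287 and 304 in long-term cells (67.4-fold). COL5A1 (chromosome 9, 134641774 to 134844843), which helps to start collagen I fibrils, had 123, 134 and 204 against 1052, 946 and 1734 short-term (8.05-fold), and 2, 0 and 7 against 1382, 1013 and 1465 long-term (322-fold). The knockdown levels of COL5A1 overlapped between the times, so the difference between its folds lies in the nontarget cells. COL4A1, a basement membrane collagen, was among the lower genes, at 7496, 6568 and 9949 against 3490, 3504 and 4993 short-term, and 9136, 9194 and 12796 against 2757, 2244 and 3046 long-term (2.00-fold and 3.87-fold). Of 19 collagens that met the limits 2 were higher and 1 a lower member. Over all genes that met the limits 0.534% were higher and 0.790% lower members, and the family counts below stand beside these shares. Of 20 collagens tested, 3 were called higher and 3 lower short-term, and 4 and 9 long-term, where 5.62% and 4.71% of all genes were short-term and 13.7% and 15.8% long-term (edgeR, adjusted p below 0.05).

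Of 46 genes for axon guidance cues and their receptors that met the limits, 4 were higher members and none a lower one. The list as a whole went both ways. Of its 47 genes tested, 4 were called higher and 2 lower short-term, and 13 higher and 8 lower long-term (edgeR, adjusted p below 0.05), beside the same shares of all genes as for the collagens. SEMA5A, a transmembrane semaphorin, had 45, 28 and 93 against 199, 196 and 180 short-term and 42, 53 and 47 against 393, 325 and 275 long-term (3.42-fold and 6.87-fold). The ephrin receptor EPHA4 was 2.77-fold and 2.33-fold higher, and the netrin receptor UNC5A 2.29-fold and 3.42-fold. EPHA3 had 1 to 2 normalised counts short-term without and 2 to 5 with knockdown, groups that overlapped, and 2, 3 and 2 against 196, 219 and 134 in long-term cells. Its short-term ratio of 2.14 therefore rests on a few reads.

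Adhesion genes were split. Of 19 cadherins and protocadherins that met the limits, 1 was a higher and 1 a lower member. Of 33 integrins and immunoglobulin-type molecules there were 1 and 1. Of 21 cadherins and protocadherins tested, 3 were called higher and 4 lower short-term, and 3 and 13 long-term. Of 34 integrins and immunoglobulin-type molecules tested, 8 and 3 were called short-term and 8 and 14 long-term (edgeR, adjusted p below 0.05). The shares of all genes are those beside the collagens. CDH6, cadherin 6 of the developing nephron, had 354, 446 and 597 against 926, 1212 and 667 short-term (2.01-fold), and 1571, 1434 and 2028 against 11769, 11978 and 9615 long-term (6.63-fold). Its long-term knockdown level was the highest of the 4 groups. CNTN6, a neural contactin, was 5.05-fold and 16.2-fold higher, while ITGB3, the beta-3 integrin chain, was 2.10-fold and 2.35-fold lower (616 ± 72.1 to 293 ± 16.1 and 779 ± 18.8 to 330 ± 9.07, SD, n = 3). PCDHGA7 was 2.95-fold and 2.38-fold lower, and it shares its last exons with the other gamma protocadherins, so its reads may belong to several of them.

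PTK7, a receptor-like pseudokinase of planar cell polarity, was 5.83-fold and 13.0-fold higher, and its knockdown level was 55.3 ± 11.5 short-term and 177 ± 21.5 long-term (normalised counts, SD, n = 3). ELL2, a transcription elongation factor, was 2.69-fold and 4.69-fold higher. FBXO32, the ubiquitin ligase subunit atrogin-1 and a known FOXO target, was 4.56-fold and 7.11-fold higher, from 51.7 ± 13.7 and 75.3 ± 7.37 in nontarget cells. BIRC7, an inhibitor of apoptosis, was 3.82-fold and 3.26-fold higher, and PLPP3, which degrades lipid phosphates, 7.37-fold and 3.12-fold.

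Of 5 metallothionein genes that met the limits, a family grouped after its values were seen, MT1F and MT1X were members. These are small proteins that bind zinc and other metals. MT1E, MT1M and MT2A were not members, with ratios of 1.89, 1.76 and 1.40 short-term and 2.36, 2.22 and 2.69 long-term. MT1F had 63, 73 and 107 against 248, 249 and 384 short-term and 45, 36 and 106 against 283, 209 and 369 long-term (3.59-fold and 4.55-fold). MT1X, just inside the limit short-term, had 67, 53 and 70 against 112, 112 and 166, and 58, 37 and 67 against 162, 156 and 230 (2.04-fold and 3.34-fold). In both genes every knockdown library was above every nontarget library of its time. They lie 21726 bases apart on chromosome 16, and because metallothionein genes are near-copies, reads may be shared among them. HMOX1, the stress-induced haem oxygenase, picked after its values were seen, was 3.35-fold and 2.41-fold higher (169 ± 13.5 to 569 ± 80.7 and 183 ± 38.1 to 442 ± 75.8, SD, n = 3).

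Metallothionein promoters carry metal response elements, the binding sites of the zinc-sensing factor MTF1. The RefSeq promoter of MT1X (GRCh38.p14, chr16:56682220-56682519, plus strand, 250 bases before to 50 after the start) is shown with matches to TGCACNC or TGCGCNC, searched on both strands, in capitals.
MT1X promoter: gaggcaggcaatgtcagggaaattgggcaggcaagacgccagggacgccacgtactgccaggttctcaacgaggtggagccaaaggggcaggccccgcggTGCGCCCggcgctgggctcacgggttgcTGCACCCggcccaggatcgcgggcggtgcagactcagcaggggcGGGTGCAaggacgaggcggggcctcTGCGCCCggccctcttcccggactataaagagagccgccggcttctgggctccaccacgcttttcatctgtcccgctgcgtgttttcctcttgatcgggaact
It held 4 matches. At least 3 matches were found in 6 of 52 higher genes with a RefSeq promoter (11.5%), in 2 of 70 lower genes (2.86%) and in 2.27% of 27305 promoters, and at least 1 in 38.5%, 45.7% and 29.3%. The E-box CACGTG, the core of the site that TFEB and TFE3 bind, was found in 2 of the 52 higher (3.85%) and 3 of the 70 lower genes (4.29%), against 7.43% of all promoters. The longer forms TCACGTGA and TCATGTGA, searched on both strands, were in none of the 52 and 70 promoters and in 1.04% and 1.01% of all. The 27305 promoters were not limited to genes that met the level and count limits, as the members were, so these shares have unlike bases.

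Transport genes were found in both directions. The lower genes included SLC41A3, a magnesium transporter (2.52-fold and 3.54-fold), the monocarboxylate transporter family gene SLC16A9 (2.31-fold and 2.55-fold) and the drug and urate exporter ABCG2 (2.12-fold and 2.35-fold). The higher genes included SLC17A3, a urate transporter (4.0-fold and 6.0-fold), SLC16A5 (3.39-fold and 3.55-fold), and KCNIP1, a potassium channel subunit (3.02-fold and 3.33-fold). Of 186 solute carriers that met the limits, 2 were higher and 3 lower members. Of 106 channels, pumps and ABC transporters, 3 were higher and 3 lower members.

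Among ion channel genes, KCNC4, a voltage-gated potassium channel (2.44-fold and 3.83-fold), and ANO2, a calcium-activated chloride channel (4.70-fold and 12.2-fold), were higher. KCNH3, another potassium channel (2.34-fold and 2.91-fold), and CACNA1H, a T-type calcium channel (2.28-fold and 2.89-fold), were lower. All 4 were scarce, with at most 94 normalised counts in any library, and in each the groups stood apart at both times.

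Listed developmental transcription factors were also found on both sides, 2 and 2 of 98 that met the limits. The list does not hold every such gene, and PITX1, a lower member described below, is not on it. TFAP2A, a factor of neural crest and distal nephron development, had 73, 86 and 116 against 189, 213 and 321 short-term and 83, 108 and 151 against 225, 219 and 289 long-term (2.61-fold and 2.13-fold). HOXB6 was 2.10-fold and 2.47-fold higher. FOXJ1, the master regulator of motile cilia, was 2.28-fold and 2.57-fold lower, with groups that overlapped in long-term cells (6, 12 and 15 against 2, 6 and 3). FOXL1 was 2.22-fold and 2.54-fold lower. Of 452 zinc finger genes, ZNF182 was a higher member and ZNF610 and ZNF585B lower ones. ZNF585B had 48, 58 and 45 against 24, 25 and 22 short-term and 35, 38 and 25 against 2, 2 and 2 long-term.

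Secreted growth factors and cytokines gave 1 higher and 2 lower members of 77 that met the limits, and matrix enzymes and inhibitors 1 and 1 of 46. LOXL4, a lysyl oxidase that cross-links collagen, was lower at 159, 137 and 141 against 82, 79 and 55 short-term and 191, 205 and 225 against 78, 97 and 99 long-term. FGF5 was 2.05-fold lower short-term and 9.0-fold long-term, where knockdown libraries had 1, 6 and 1 normalised counts. IL4I1, a secreted amino acid oxidase, was 2.60-fold and 2.56-fold lower, and ADAMTSL3, a matrix protein related to ADAMTS proteases, 2.19-fold and 2.01-fold higher. No other listed matrix protein was a member, of 30 that met the limits. NPNT, nephronectin, an integrin ligand of the kidney basement membrane picked after its values were seen, had 236, 267 and 310 against 579, 683 and 424 short-term and 305, 368 and 345 against 1048, 1213 and 928 long-term (2.07-fold and 3.13-fold).

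Signalling genes picked after their values were seen were IRS2, TLR4 and LCK. IRS2, an adaptor of the insulin receptor, was 2.04-fold and 2.05-fold higher, at 621, 656 and 687 against 1079, 1073 and 1859 and at 676, 665 and 940 against 1287, 1201 and 2198. TLR4, the receptor for bacterial lipopolysaccharide, was 4.16-fold and 3.5-fold lower and had 7 to 25 normalised counts in long-term nontarget cells, where its groups touched. LCK, a Src family kinase best known from T cells, had 39, 45 and 31 against 10, 6 and 13 short-term and 74, 72 and 81 against 18, 24 and 24 long-term. Its groups were well apart at both times.

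The interferon-stimulated genes OASL and IFIT1 were lower members, and none of the 25 listed genes that met the limits was a higher one. Of 29 listed genes tested, 1 was called higher and 6 lower short-term, and 1 and 15 long-term, where 5.62% and 4.71% of all genes were short-term and 13.7% and 15.8% long-term (edgeR, adjusted p below 0.05). OASL, an antiviral oligoadenylate synthetase-like protein, had 242, 268 and 128 against 93, 73 and 53 short-term and 70, 82 and 72 against 13, 13 and 12 long-term. IFIT1, which binds viral RNA, had 648, 823 and 332 against 249, 304 and 116, and 222, 307 and 235 against 103, 137 and 109. The nontarget groups of both genes were lower long-term than short-term, and the IFIT1 short-term libraries spread widely. IFIT1 also holds the octamer.

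Some genes were at or near 0 without knockdown. PTPRN, a secretory granule protein, had no read in the short-term nontarget libraries and 166 with knockdown, which makes it at least 53.1-fold higher against a floor of 3 reads over the group. Long-term it had 1 read against 414, a ratio per total reads of 403 (95% interval 72.0 to 15964, counting error only). FAM43B was at least 84.7-fold higher short-term, and its long-term ratio was 28.2 (9.35 to 140) on 3 reads. BTBD11 had no read in either nontarget group, and was at least 8.31-fold higher short-term and at least 63.6-fold long-term. HLA-DPB1, an MHC class II chain, had 5, 0 and 1 normalised counts against 27, 39 and 29 short-term, and long-term it was at least 18.5-fold higher. These 4 genes were picked after their values were seen. The leukocyte markers PTPRC and CD3E had no read in any library.

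MT-RNR2, the mitochondrial 16S ribosomal RNA, was the most abundant member, at 22898 ± 362 short-term and 10943 ± 1235 long-term in nontarget cells against 50366 ± 4385 and 46623 ± 13882 with knockdown (normalised counts, SD, n = 3; picked after its values were seen). The libraries were made from polyadenylated RNA, where little of this ribosomal RNA is kept, and nuclear copies of it exist. At 2.20-fold and 4.26-fold it was a higher gene in both comparisons.

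Sizes varied widely among members. The median fold of the 71 higher genes was 2.88 short-term and 3.87 long-term, and that of the 105 lower genes 2.36 and 3.13. The long-term fold was the larger one in 50 higher and 80 lower genes. In 19 higher and 25 lower genes it was over 2 times the short-term fold, while 5 and 2 genes showed the opposite. SYT13, a synaptotagmin, was one of those, at 62, 64 and 103 against 625, 666 and 677 short-term (8.50-fold) and 56, 54 and 54 against 115, 105 and 120 long-term (2.05-fold). LRG1, a secreted glycoprotein picked after its values were seen, was 9.84-fold lower short-term and 2.90-fold long-term. The knockdown libraries lay apart from the nontarget libraries at both times in 64 higher genes (90.1%) and 98 lower genes (93.3%), where 5.07% and 6.15% of the 13284 genes did so in those directions. The rule used the same contrast, so nothing is read from that.

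**Figure D1:**
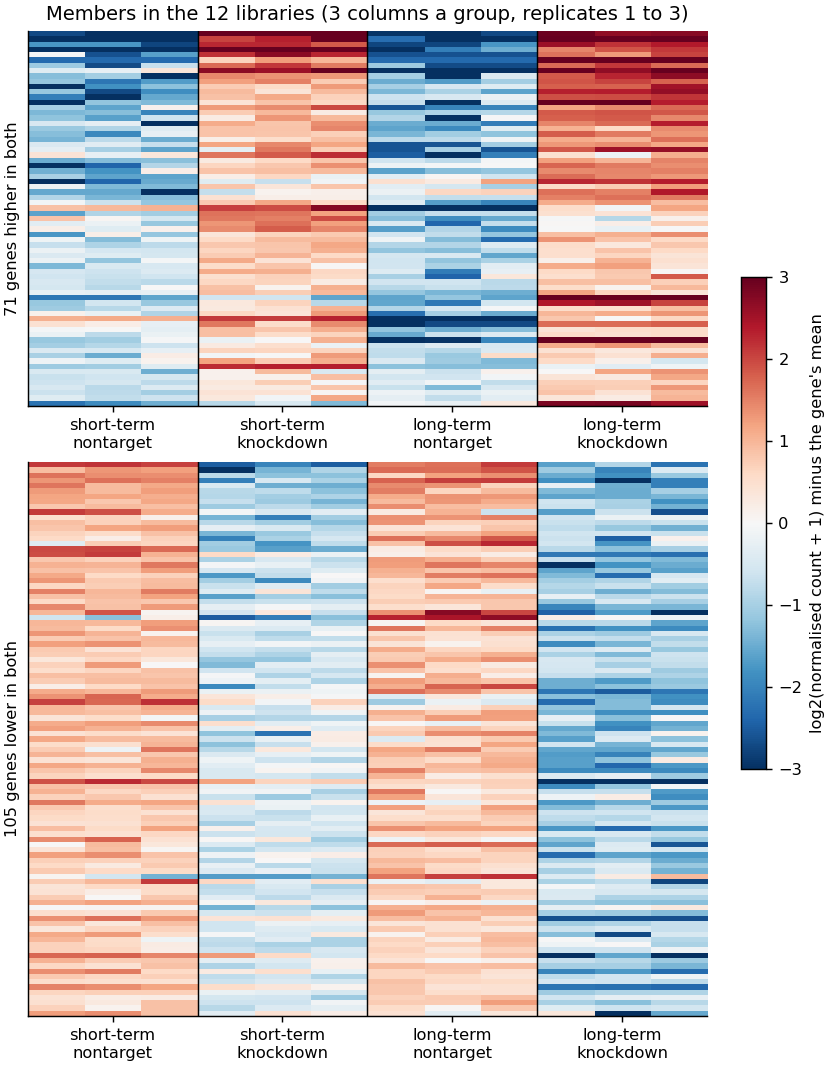
Level of the 176 members (rows, ordered by the smaller of their folds) in the 12 libraries (columns, 3 a group), as log2 of the normalised count plus 1 minus the gene's own mean. Among the 71 higher genes (top) both knockdown blocks are redder than the nontarget blocks, and among the 105 lower genes (bottom) bluer, most of all in long-term knockdown cells.

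The limit cuts through a continuous range. Just inside for the higher genes were CDH6 (2.01-fold and 6.63-fold), an unmatched gene ID (ENSG00000259279.1), ADAMTSL3 (2.19-fold and 2.01-fold) and MT1X, and just outside were SLC16A4 (1.99-fold and 4.37-fold), ZNF503 (1.97-fold and 2.59-fold), TMEM238 (2.16-fold and 1.97-fold) and ITGB2 (1.96-fold and 1.98-fold). Just inside for the lower genes were PTGER2 (2.14-fold and 2.00-fold), MSC (2.07-fold and 2.00-fold), COL4A1 and LOXL4 (2.01-fold and 2.25-fold), and just outside were ISG20 (1.98-fold and 4.78-fold), MIGA1 (1.97-fold and 2.52-fold), HOXB4 (1.97-fold and 2.03-fold) and PUDP (1.97-fold and 2.77-fold). Replicate 3 of IGFBP3, a higher gene that binds insulin-like growth factors, was the highest of each group (285, 201 and 655 against 530, 559 and 1362 short-term, 332, 260 and 831 against 967, 772 and 1200 long-term), and its groups overlapped at both times. With each library left out in turn, 42 of the 71 higher and 50 of the 105 lower genes passed the limits every time. A further 15 genes met both lower limits but had 5 or fewer reads in long-term knockdown cells.

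By annotation, 65 higher and 93 lower genes were protein-coding. Overlap with another annotated gene on either strand was found for 53 higher and 76 lower genes. In 5 cases both genes of an overlapping pair were members: AC245041.1 with AC245041.2, PTPRB with AC025569.1, FAM198B with FAM198B-AS1, ACLY with AC125257.2, and SLF1 with MCTP1. The histone genes HIST1H4I and HIST1H2BK, 6537 bases apart on chromosome 6, were both lower (2.29-fold and 5.28-fold, and 2.25-fold and 7.12-fold). PTPRB and PTPRR, phosphatase genes 633 bases apart on chromosome 12, were lower too, by 2.48-fold and 5.59-fold and by 2.03-fold and 6.13-fold.

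No member belonged to a chosen list of 49 genes known to be regulated by TFEB or TFE3, of which 47 were tested. The list does not hold every such gene, and the members CTSL, a lysosomal protease, and IRS2 are not on it. Short-term, 8 of them rose and 2 fell, where 5.62% of all genes tested rose and 4.71% fell (edgeR, adjusted p below 0.05). Long-term, 8 rose and 14 fell, against 13.7% and 15.8% of all genes. The median log2 change of the list was 0.00 and −0.12. Long- and short-term effects differed in 11 listed genes, where they did in 13.4% of all genes tested (edgeR interaction, adjusted p below 0.05). The 2 that fell short-term were FLCN, the target itself, and GAA, lysosomal acid alpha-glucosidase. This number became 6 with the replicate number as a block, 4 with no filter, 4 without long-term knockdown replicate 3, and 1 without either short-term nontarget replicate 1 or short-term knockdown replicate 1. Listed genes that rose at both times without reaching both limits included SQSTM1, an autophagy receptor (log2 change 0.98 and 0.64, SE 0.109 each, edgeR adjusted p = 1.72e-05 and 2.36e-04), and PPARGC1A, a coactivator of mitochondrial biogenesis (0.73 and 1.46, edgeR adjusted p = 0.00852 and 3.33e-06). GPNMB rose at both times too, with log2 changes of 3.06 and 0.96 (edgeR adjusted p = 6.55e-07 and 0.0109).

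Culture time was tested as the difference between long- and short-term cells, averaged over nontarget and knockdown cells, which is not a comparison the rule used. In this balanced design its error is uncorrelated with that of both knockdown differences only as far as all libraries vary alike, and knockdown groups with few reads need not. The long-term fold was the larger one in most members, which by itself moves the average up in higher and down in lower genes, so the counts below describe the members and are not set against the background as a result. Among the 71 higher genes 16 rose (22.5%) and 15 fell (21.1%) with culture time, where 8.72% of the 13959 genes tested rose and 13.1% fell. Among the 105 lower genes 8 rose (7.62%) and 35 fell (33.3%), and the 8 became 5 without short-term knockdown replicate 1. The median log2 change was 0.14 in the higher and −0.21 in the lower genes, against 0.008 in all genes. In nontarget cells alone the medians had the opposite signs, −0.10 in the higher and 0.08 in the lower genes. Of the 27 lower genes with the octamer, none rose and 10 fell, and of the 65 without it 8 rose and 23 fell (edgeR, adjusted p below 0.05).

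The largest log2 changes upward among the higher genes were those of EPHA3 (3.01), GNAO1, a G protein alpha subunit (3.00, SE 0.247, edgeR adjusted p = 1.36e-07), and CDH6 (2.71). CDH6 was highest in the long-term knockdown libraries, which also gave its long-term fold, so no test is given for it. EPHA3 met the level limit only through its long-term knockdown libraries, which also carry its change with culture time, and its log2 change in nontarget cells was 0.67, so no test is given for it. GNAO1 rose in both kinds of cells, with 1, 4 and 8 normalised counts in short-term and 35, 30 and 59 in long-term nontarget cells, and 19, 15 and 23 against 124, 116 and 131 in knockdown cells. The largest log2 changes downward were those of HHIPL1 (−4.70), SUSD5 (−3.63) and COL5A1 (−2.74). HHIPL1 had no read in long-term nontarget cells, so its fitted change depends on the small count added in the fit. The averaged change of COL5A1 lies in nontarget cells alone, with group means of 154 and 3.00, while its knockdown means were 1244 and 1287. SUSD5 had 3 reads over the long-term nontarget libraries. Since nontarget cells chose the members, no test is given for these 3 genes. SUSD5 had 51, 53 and 51 normalised counts in short-term and 1, 0 and 2 in long-term nontarget cells, and 107, 105 and 121 against 42, 24 and 37 with knockdown.

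Among the lower genes, ARNT2, a partner of hypoxia-inducible and related factors, had the largest log2 change upward (2.61), with 10, 6 and 18 normalised counts short-term against 82, 91 and 106 long-term in nontarget cells and 2, 3 and 6 against 18, 16 and 14 in knockdown cells. It was followed by PITX1, a hindlimb homeodomain factor (2.30), and TESC, a calcium-binding protein (1.15, SE 0.156, edgeR adjusted p = 3.53e-05). The largest log2 changes downward were those of the noncoding CASC19 (−3.14), PCDHGA7 (−2.57) and the growth factor gene FGF5 (−2.28). CASC19 had 7 reads and FGF5 8 reads over the long-term knockdown libraries, which also gave their long-term folds, so no test is given for them. Nor is one given for ARNT2, PITX1 and PCDHGA7, which met the level limit only through the culture time at which they were high. In nontarget cells the CASC19 and FGF5 log2 changes were −1.39 and −1.0.

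The nontarget libraries were the denominators of the rule, so culture time within nontarget cells is given as a description only. There 8 higher genes were called higher (11.3%) and 12 lower (16.9%) in long-term cells, and 8 lower genes were called higher (7.62%) and 16 lower (15.2%), where 3.17% and 4.38% of all genes tested were (edgeR, adjusted p below 0.05). For the lower genes the total of 24 became 15 without short-term nontarget replicate 1, 14 without long-term nontarget replicate 2 and 16 without long-term nontarget replicate 3. By direction, the 8 lower genes called higher became 4 without either of the first pair and 5 without short-term nontarget replicate 2 or long-term nontarget replicate 3, the 16 called lower became 10 without long-term nontarget replicate 2, and the 8 higher genes called higher became 5 without short-term nontarget replicate 2. CDH6 had 354, 446 and 597 normalised counts in short-term and 1571, 1434 and 2028 in long-term nontarget cells. CTSL, the lysosomal protease cathepsin L and a lower gene picked after its values were seen, had 558, 619 and 562 against 277, 305 and 238.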

How the data were processed

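RNA from 12 HK2 cultures (4 groups of 3) was sequenced by the authors from TruSeq RNA v2 libraries made of polyadenylated RNA, and the submitters' notes name STAR, featureCounts, DESeq2 and GRCh38. Strand setting and versions are not given in the sources used here. The deposited tables hold raw counts and, as scores, the authors' normalised counts, each equal to the raw count times 1 factor per library to within 1. Members were found on the normalised values, and folds are ratios of group means plus 1. Raw counts were tested with edgeR 4.0.16 (quasi-likelihood, TMM factors, filterByExpr, 1 model of 12 libraries, two-sided, Benjamini-Hochberg over 13959 genes). P-values measure the spread between these samples. Gene IDs were matched to GENCODE 29 (55619 of 58288 with the same version), which alone have gene coordinates printed. Members, gene lists and tests were chosen with earlier results of these data known, and the octamer search after their values were seen. Named genes were the 12 members of largest smaller fold per direction (mean at least 50), listed families, 4 genes each side of the limit, and the 3 largest culture-time changes per direction. Alternatives were other limits, scaling, medians, DESeq2 1.42.0, filters, the replicate block and leaving out each library. Intervals cover counting error only. Some cell type markers are not reported here.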

Additional observations from a re-analysis of the deposited data

Results flagged for a closer look

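Of the 47 tested genes of the TFEB/TFE3 list, none of them a member, 11 had long-term and short-term knockdown effects that differed in the interaction test of edgeR (adjusted p below 0.05), where 13.4% of all genes tested did. In 5 of these at least 1 knockdown effect also passed its test with a 2-fold change. Their difference, long-term minus short-term log2 change, was −2.22 for FNIP2 (adjusted p = 1.10e-06), −2.10 for GPNMB (adjusted p = 7.23e-04), −1.81 for RRAGD (adjusted p = 1.88e-04), 1.57 for GAA (adjusted p = 1.05e-05) and 0.74 for PPARGC1A (adjusted p = 0.0457), all from edgeR. FNIP2 had 152, 165 and 142 normalised counts against 309, 374 and 290 with short-term knockdown, and 168, 191 and 152 against 82, 83 and 66 with long-term knockdown. GPNMB was higher with knockdown at both times, with log2 changes of 3.06 short-term and 0.96 long-term. For FLCN itself the difference was 0.63 (edgeR adjusted p = 0.118).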

How the results depend on the processing

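The number of members follows the limits. A ratio limit of 1.5 gave 255 higher and 335 lower genes, a limit of 2.5 gave 38 and 38, and a minimum mean of 50 gave 30 and 51, where the octamer share of lower genes was 46.9%. TMM scaling, group medians and a pseudocount of 5 left both counts within 1.5 times. Without 1 library there were 63 to 82 higher and 94 to 122 lower genes, and the octamer share, an analysis added after seeing the data, was 24.5% to 31.0%. Testing only genes whose mean reached 10 CPM, which drops many members, gave 11 higher and 22 lower genes that changed with culture time over all cells, and 8 and 8 in nontarget cells, in place of 31, 43, 20 and 24. Without 1 library these counts were 27 to 32, 35 to 45, 15 to 20 and 14 to 29. FLCN kept its direction and its side of the threshold in each alternative run, from −1.45 to −1.26 short-term and from −0.79 to −0.65 long-term without 1 library. The TFEB/TFE3 list had 7 to 12 and 17 to 22 changed genes. Same-numbered libraries correlated at −0.101 to 0.467 and those of other numbers at −0.397 to 0.231. Of 12 libraries, 10 correlated best with one of their own number. The main tests did not use the replicate number, and what same-numbered libraries share was not tested. With the replicate block the culture-time counts were 34, 45, 22 and 33, the list had 14 and 24, and FLCN −1.31 and −0.69, each total within 1.5 times. By direction, listed genes that fell short-term went from 2 to 6, and lower members called higher in nontarget cells from 8 to 14. Lower members that rose over all cells were 5 without short-term knockdown replicate 1, in place of 8. Depth limits genes near 10 normalised counts, where a ratio of 2 can rest on few reads.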
